A study of Homo sapiens with 8 samples.

Results

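The genes described here are the 8 RFX transcription factor genes, RFX1 to RFX8, and RFXANK and RFXAP, whose proteins form a complex with RFX5. They are 10 of 20037 protein-coding genes on chromosomes 1 to 22, X and Y in the RefSeq table of GRCh38.p14. All listed RFX7 ChIP-seq peaks within 10 kb of these gene bodies were taken, which gave 1 of the 1234 peaks listed after Nutlin-3a and 0 of the 556 peaks listed after DMSO. The peak lay at the start of RFX5. No peak was listed within 10 kb of RFX7 itself or of any of the 8 other genes. Of all protein-coding genes, 1.35% had a Nutlin-3a peak and 0.0649% a DMSO peak within this reach. The count of 1 among the 10 genes rests on a single peak and was not tested against these shares.

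RPE-1 is an established human line of retinal pigment epithelium. Cells were given 10 µM Nutlin-3a, a small molecule that keeps MDM2 from binding p53 and so stabilises p53, or its solvent DMSO, for 24 h. Each treatment had 2 samples immunoprecipitated with an antibody against RFX7 and 2 samples of input chromatin. The values come from a single peak list for each treatment. There is therefore no replicate error and no test between treatments, and the read depth behind a peak is unknown.

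RFX proteins share a winged-helix DNA-binding domain that recognises the X-box, an element built of a pair of inverted arms. RFX5, RFXANK and RFXAP together bind the X-box of MHC class II promoters, and inherited loss of any of them causes a bare lymphocyte syndrome in which MHC class II is missing. RFX2 and RFX3 are known as regulators of cilium genes, RFX4 acts in the developing brain, and RFX6 acts in the hormone-producing islets of the pancreas. RFX5 and RFX7 lack the dimerisation domain found in RFX1, RFX2 and RFX3. RFX7 has been linked to gene activation that depends on p53.

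Windows of the RefSeq promoter table of GRCh38.p14 span 250 bases before to 50 bases after a start site. Sequences at the start of RFX5 are shown from this table. The first is the whole window of the outermost RFX5 start site (chr1:151347203-151347502, minus strand), all of which lay inside the Nutlin-3a peak. The second is a stretch of the window of the next RFX5 start site (chr1:151347164-151347193, minus strand), also inside the peak. Capitals mark arms of an X-box, GTTGCC or GTTGCT on either strand, so that AGCAAC is GTTGCT and GGCAAC is GTTGCC read on the other strand. In the first sequence the related arm GTTACC is in capitals too.
RFX5 start 1: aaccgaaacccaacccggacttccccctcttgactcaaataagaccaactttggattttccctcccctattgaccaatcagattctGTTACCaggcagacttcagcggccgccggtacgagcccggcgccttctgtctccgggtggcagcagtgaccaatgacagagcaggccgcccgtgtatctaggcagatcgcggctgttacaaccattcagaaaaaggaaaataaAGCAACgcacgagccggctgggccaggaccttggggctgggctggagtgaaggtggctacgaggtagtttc
RFX5 start 2: cttacctttattGTTGCTtgtgttggaagg

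RFX5 is the DNA-binding subunit of the MHC class II complex, and it was the only gene of the 10 with a peak in reach. The gene occupies positions 151340640 to 151347252 of chromosome 1 and is read on the minus strand, so its first base is 151347252. The Nutlin-3a peak spanned positions 151346976 to 151347524, a width of 549 bp, with 277 bp inside the gene and 272 bp upstream of it. Its middle was 2 bp from the first base of RFX5. Its deposited summit, at 151347015, was 237 bp into the gene and 39 bp from the edge of the peak. The 2 ways of placing the peak therefore both put it at the gene's start, and which of the 3 RefSeq start sites of RFX5 is nearest depends on the way chosen, since the second start site lies 253 bp inside the gene. The third start site, 396 bp inside the gene, was outside the peak.

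The same peak covered the start of RFX5-AS1, a non-coding gene of 882 bp that is read in the opposite direction (151347010 to 151347891) and overlaps the first bases of RFX5. Of the peak's bases 515 lay within RFX5-AS1, and the summit was 5 bp from the boundary at its start. The peak can thus not be assigned to RFX5 rather than to RFX5-AS1 by position. No other gene was within 10 kb of the peak. The map of the RFX5 start shows these features on one scale. Exons and introns were not analysed here.

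**Figure D1:**
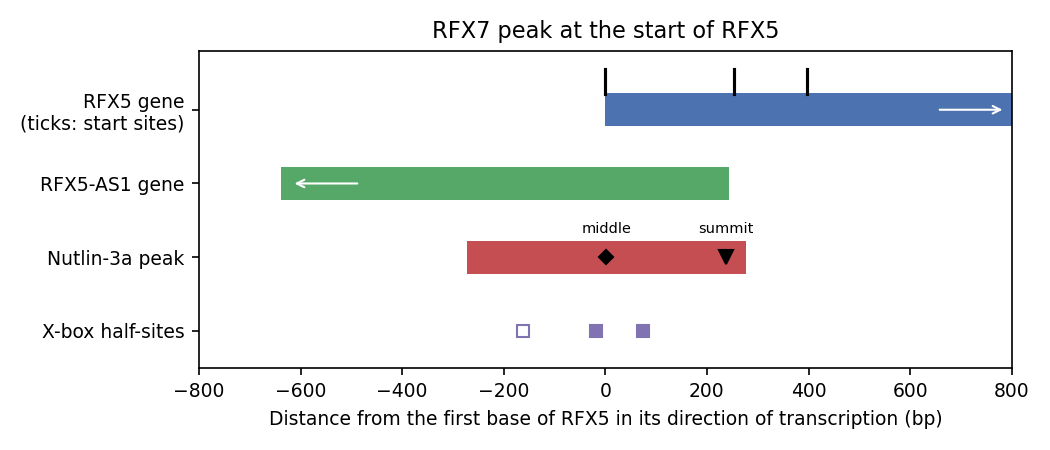
Map of the RFX5 start, with the distance from the first base of RFX5 in base pairs on the horizontal axis and 1 lane each for RFX5, RFX5-AS1, the Nutlin-3a peak and the X-box arms (filled, GTTGCC or GTTGCT; open, GTTACC). The peak reaches from 272 bp upstream to 276 bp inside the gene, with its middle at 2 bp and its summit at 237 bp.

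The peak held a matching X-box arm at 2 places, of which 1 was next to its middle. The arm in the first sequence began 21 bp upstream of the outermost start site and was 18 bp from the middle of the peak and 253 bp from its summit. The arm in the second sequence was 69 bp from the middle and 161 bp from the summit. The related arm GTTACC lay 164 bp upstream of the start site, 161 bp from the middle. A single form of the X-box, GTTNCC, any 2 bases and GGNAAC in a row, was searched for and is called the full X-box here. It was not found in any RFX5 window. This form cannot contain the arm GTTGCT, which is the arm at the 2 places in the RFX5 peak. Pairs with other arms or another spacing were not searched for. The windows covered 527 of the peak's 549 bases.

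In strength, the RFX5 peak stood high in the Nutlin-3a list by fold enrichment and less so by −log10 p. Its fold enrichment, the authors' value, was 6.34, rank 90 of 1234, against a median of 2.77 over the list. Its −log10 p was 38.9, rank 394, against a median of 23.8, and its −log10 q was 34.0. Its width ranked 70, against a median of 161 bp. Among the 101 peaks with a summit within 1000 bp of either end of a protein-coding gene, called boundary peaks here, it was rank 33 by fold enrichment and rank 36 by −log10 p. The medians of these boundary peaks were 5.08-fold, a −log10 p of 27.2 and a width of 345 bp. The RFX5 peak was above all 3 medians, in the upper part of the boundary peaks but far from the strongest.

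**Figure D2:**
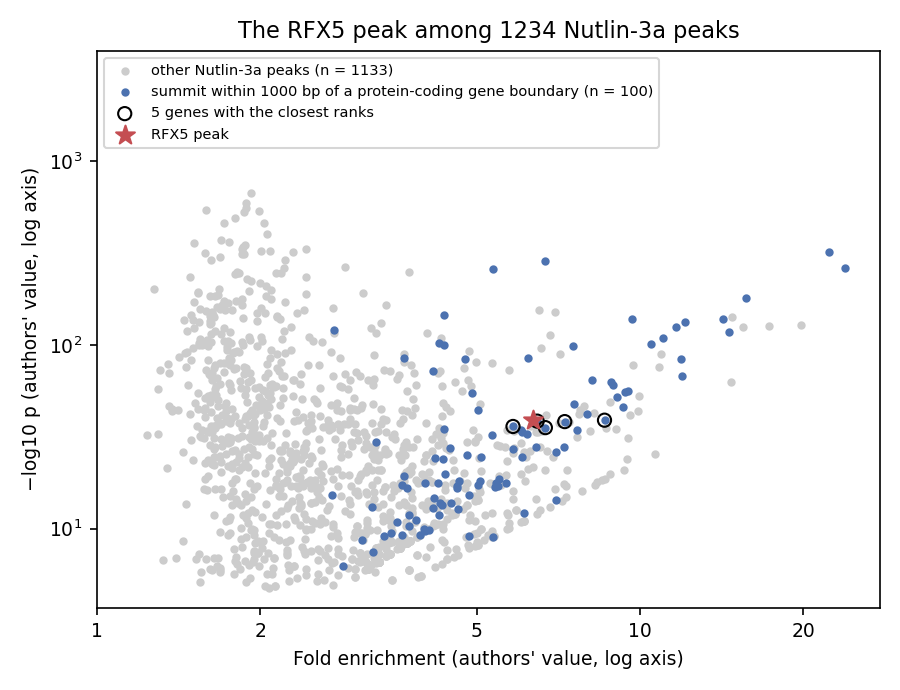
Fold enrichment (horizontal) against −log10 p (vertical), both as given by the authors and on log axes, for each of 1234 Nutlin-3a peaks, with the 101 boundary peaks in colour. The RFX5 peak, a star at 6.34-fold and a −log10 p of 38.9, lies among the boundary peaks, to the right of most of the list.

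Of the 10 genes, 1 had a Nutlin-3a boundary peak and 0 had a DMSO boundary peak. The shares over all protein-coding genes were 0.569% and 0.00499%. The 5 genes whose boundary peaks were most like that of RFX5, by the summed difference in rank by fold enrichment and by −log10 p over 1234 peaks, were TSPYL1, PPRC1, TSPYL2, DYRK1B and UBE2N. TSPYL1, a member of the TSPY-like family, was the closest, with 6.47-fold, a −log10 p of 38.5 and a summed difference of 9.5 ranks. PPRC1, a transcriptional coactivator, had 7.27-fold and 38.2. TSPYL2 had 8.60-fold and 38.9. DYRK1B, a protein kinase, had 6.69-fold and 35.5, and the same peak lay within 1000 bp of a boundary of FBL, which encodes a nucleolar methyltransferase. UBE2N, a ubiquitin-conjugating enzyme, had 5.84-fold and 36.0. None of these 5 peaks overlapped a DMSO peak, and neither did the RFX5 peak. Only 1 of 20037 protein-coding genes had a DMSO boundary peak, so this lack of overlap sets none of these genes apart. The share of all 1234 Nutlin-3a peaks that overlap a DMSO peak is not given here. The DMSO peak nearest to RFX5 was 4.54 Mb from the gene.

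RFX7 encodes the factor that was immunoprecipitated, and no peak was listed at its own gene in either treatment. The gene spans 157803 bp of chromosome 15 (56087280 to 56245082, minus strand). The nearest of 30 Nutlin-3a peaks on that chromosome was 642 kb away, at 56887274 to 56887343, with 5.02-fold enrichment and a −log10 p of 9.44. TCF12, a basic helix-loop-helix factor, was the nearest protein-coding gene to the summit of this peak, at 30799 bp. The nearest of 5 DMSO peaks was 36.3 Mb away. A Nutlin-3a peak was nearer in 19.2% of protein-coding genes, so the distance at RFX7 was below the median over genes, 2.53 Mb, and far beyond the 10 kb reach.

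RFXANK and RFXAP encode the partners of RFX5, and neither had a peak in reach. RFXANK, an ankyrin repeat protein (chromosome 19, 19192258 to 19201866), had its nearest Nutlin-3a peak at 184 kb, which made it the second nearest of the 10 genes. The summit of that peak (19385701 to 19386113, 4.36-fold, −log10 p 34.9) was 136 bp outside GATAD2A, a subunit of the NuRD complex. RFXAP (chromosome 13, 36819222 to 36829104) had its nearest Nutlin-3a peak at 7.61 Mb, the farthest of the 10 genes. The summit of that peak was inside TSC22D1. Of the 3 genes of the complex, only RFX5 had a peak in reach, and by position that peak may equally belong to RFX5-AS1. Since 1.35% of all protein-coding genes had a Nutlin-3a peak in reach, the lack of one at RFXANK and RFXAP sets neither apart. The nearest DMSO peaks to RFXANK and RFXAP were 8.16 and 18.6 Mb away.

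RFX1, RFX2, RFX3 and RFX4 had their nearest Nutlin-3a peaks more than a megabase away. For RFX1 (chromosome 19, 13961530 to 14006816) the distance was 1.17 Mb, to a peak with its summit 197 bp outside JUNB, which encodes a subunit of AP-1. For RFX2 (chromosome 19, 5993164 to 6110500) it was 2.49 Mb, to a peak with its summit 168 bp outside DOHH, the deoxyhypusine hydroxylase. For RFX3 (chromosome 9, 3218297 to 3526001) it was 1.27 Mb, to a peak of 11.7-fold and a −log10 p of 126 with its summit 223 bp outside RCL1. For RFX4 (chromosome 12, 106583004 to 106762803) it was 2.29 Mb, to a peak with its summit inside USP30, a mitochondrial deubiquitinase. RFX1 and RFX3 were nearer to a peak than most protein-coding genes, of which 29.8% and 31.7% were nearer still, and RFX2 and RFX4 were close to the median gene, at 49.5% and 47.2%. The nearest DMSO peaks to these 4 genes were 13.4, 21.2, 37.7 and 9.99 Mb away.

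RFX6 and RFX8 had no peak in reach either. RFX6 (chromosome 6, 116877242 to 116932161) was 597 kb from its nearest Nutlin-3a peak, which was the one at TSPYL1. The summit of that peak lay inside both TSPYL1 and DSE. RFX8 (chromosome 2, 101397359 to 101475112) was 2.68 Mb from its nearest, a peak of 3.31-fold and a −log10 p of 6.61. Its fold was above the list median of 2.77, and its −log10 p was below the median of 23.8. No protein-coding gene was nearer to the summit of that peak than 697036 bp. The nearest DMSO peaks were 27.8 and 6.89 Mb away. Over all 10 genes, the median distance to the nearest peak was 1.22 Mb in the Nutlin-3a list and 16.0 Mb in the DMSO list, against 2.53 and 21.3 Mb over all protein-coding genes. The lists differ in length, so these distances show no change at a gene.

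**Figure D3:**
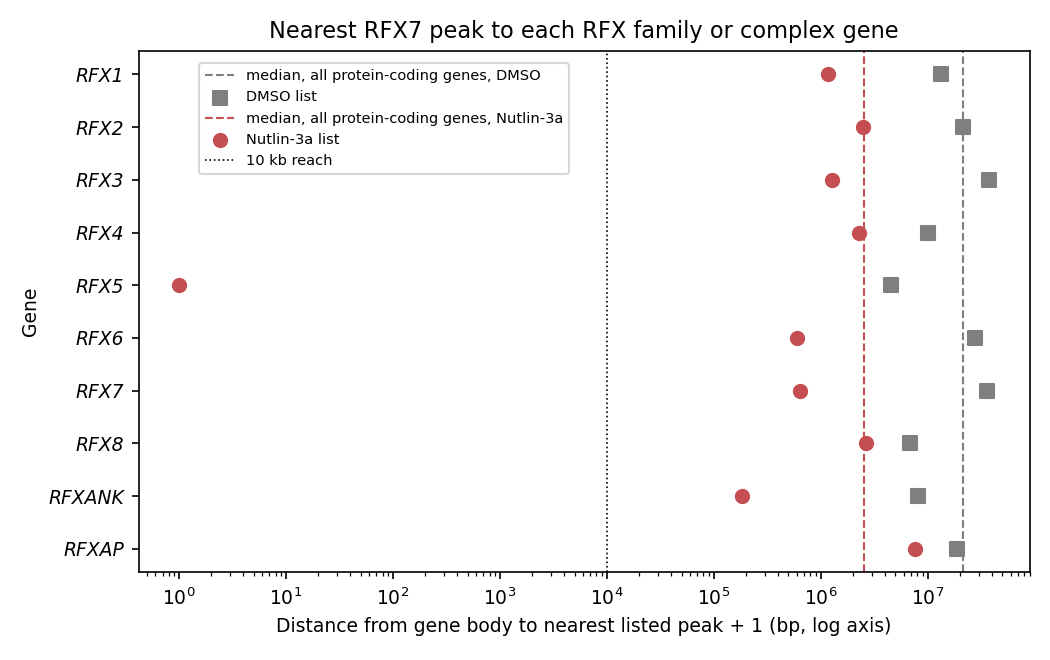
Distance from each gene body to the nearest listed peak plus 1 bp, on a log axis, for the Nutlin-3a list (circles) and the DMSO list (squares), with dashed lines at the medians over all protein-coding genes and a dotted line at 10 kb. RFX5 sits at 0 bp in the Nutlin-3a list, and the next gene, RFXANK, at 184 kb.

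The promoter table held windows for 7 of the 10 genes, 15 windows in all, so the letters of the X-box could be set beside the peaks. RFX2, RFX6 and RFX8 were not searched for motifs here. Only the 3 RFX5 windows overlapped a Nutlin-3a peak, as did 0.485% of 22078 windows of protein-coding genes, and no window overlapped a DMSO peak (0%). An arm, GTTGCC or GTTGCT on either strand, was found in 7 of the 15 windows and in 5 of the 7 genes, RFX1, RFX4, RFX5, RFX7 and RFXANK. The 4 genes other than RFX5 had an arm without a peak, and the sequences around their arms are shown for that reason, with the arms in capitals and, in RFX4 start 2, the full X-box in capitals.
RFX1 start 1: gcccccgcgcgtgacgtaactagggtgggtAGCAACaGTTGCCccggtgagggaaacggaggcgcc
RFX4 start 1: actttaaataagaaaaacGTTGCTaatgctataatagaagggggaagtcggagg
RFX4 start 2: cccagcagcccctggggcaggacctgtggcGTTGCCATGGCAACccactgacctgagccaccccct
RFX7 start 1: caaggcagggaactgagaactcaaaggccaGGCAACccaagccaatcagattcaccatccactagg
RFXANK start 3: gtcgagtatcaaGTTGCTttctgtcccggc

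The RFX1 stretch (chr19:14006291-14006356, minus strand) holds 2 arms that point away from each other, on either side of the start site, 1 of them beginning 6 bp upstream. In the RFX7 window (chr15:56245141-56245206, minus strand) the arm begins 94 bp upstream of the outermost start site. The RFXANK arm (chr19:19192928-19192957, plus strand) begins 5 bp after the third of its start sites. In RFX4 the first stretch (chr12:106582754-106582807, plus strand) has its arm 232 bp upstream of the outermost start site. The second RFX4 stretch (chr12:106601107-106601172, plus strand), at a start site 18144 bp inside the gene, holds 2 inverted arms joined into a full X-box that begins 11 bp upstream. RFX4 start 2 was thus the only one of the 15 windows with the full X-box in the form searched, and its nearest Nutlin-3a peak was 2.29 Mb from the gene.

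**Figure D4:**
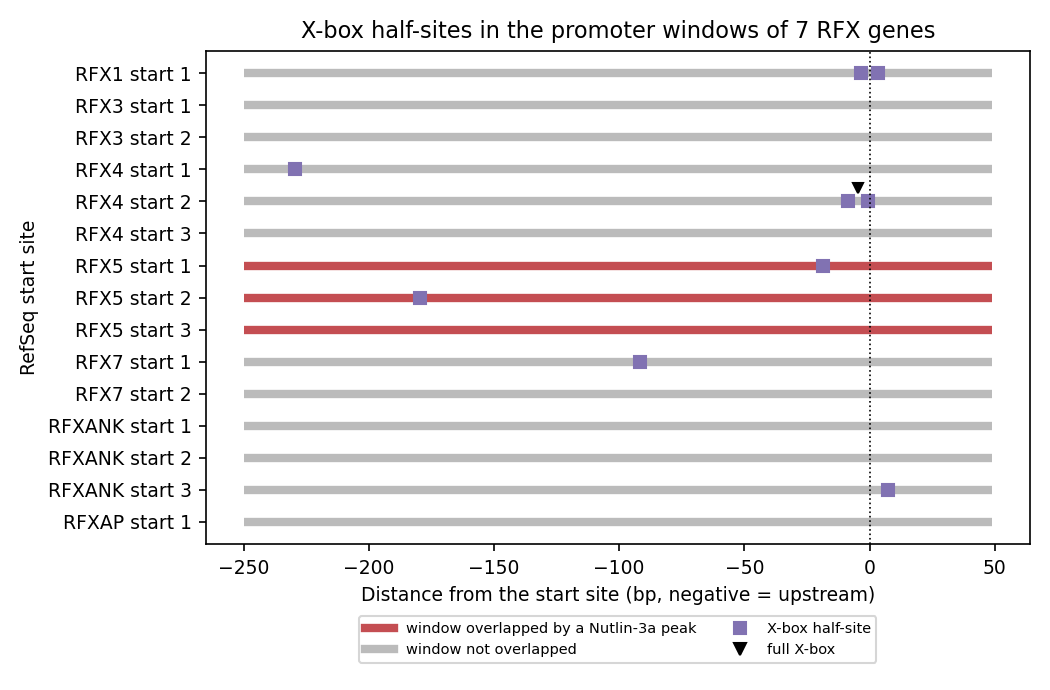
Promoter windows of 15 RefSeq start sites in 7 RFX genes, with the distance from the start site in base pairs on the horizontal axis, squares for X-box arms and a triangle for the full X-box. Of the 7 windows with an arm, the 2 of RFX5 are under a Nutlin-3a peak and the other 5 are not.

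Over all genes, an arm was common and a peak was rare. An arm was found in 23.1% of the 22078 windows, and in 63 of the 107 windows that overlapped a Nutlin-3a peak (58.9%). By gene, 4534 of 15743 genes with a window (28.8%) had an arm in at least 1 window, and 1.43% of these had a window under a Nutlin-3a peak, against 0.285% of the 11209 genes without an arm. RFX5 was among the 65 genes with both. RFX1, RFX4, RFX7 and RFXANK were among the 4469 with an arm and no peak over a window. The full X-box, in the single form searched, which leaves out pairs with the arm GTTGCT, was found in 114 windows (0.516%), and 0 of these overlapped a Nutlin-3a peak. By the limit of 3 counts this allows a share of up to 2.63%, which covers counting error only and takes windows as independent, although the 114 belong to 108 genes. The share over all windows, 0.485%, is low enough that a count of 0 is near what it gives. Genes with more windows have more chances of a match. A match of letters is a description of the sequence and not of binding.

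No gene of 4 lists of genes linked to the RFX family had a peak within 10 kb in either list. The first list held 20 genes, MHC genes and related genes of antigen presentation such as HLA-DRA, CD74 and B2M, and CIITA and NLRC5, co-activators that the RFX5 complex recruits. The smallest distance, singled out after the values were seen, was 18.6 kb at HLA-DMA, which helps load peptides onto MHC class II. It belongs to a Nutlin-3a peak with its summit inside BRD2 (chromosome 6, 32971670 to 32972225, 6.17-fold, −log10 p 24.5). The median distance to a Nutlin-3a peak over these 20 genes was 0.454 Mb, but the 16 HLA genes among them all share that peak in BRD2 as their nearest. Of the 5 genes for factors that join the RFX5 complex on DNA, NFYA, NFYB, NFYC, CREB1 and ATF1, 0 had a peak in reach, the nearest being 173 kb from NFYC. Of 10 cilium genes known from RFX2 and RFX3, 0 had one, with the smallest distance 392 kb. ARID2, whose protein also has an RFX-type DNA-binding domain, was 6.82 Mb from the nearest Nutlin-3a peak. For these 36 genes too the background shares within 10 kb, 1.35% and 0.0649%, are so low that a count of 0 is near what they give.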

How the data were processed

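The deposited files were 2 narrowPeak lists, 1 per treatment, each mapped to its RFX7 ChIP group through the titles. The submitters' processing notes name hg38, MACS2 2.2.7.1, SAMtools 1.10, bedtools 2.29.2, Trimmomatic 0.39 and cutadapt 2.10. The aligner, the control used for peak calling and the way replicates were combined are not given in the sources used here. The fold enrichment, the score, the −log10 p and the −log10 q of each peak are the authors' deposited values, and what the fold is relative to is not stated. The score was not used.

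Peak starts were written 1-based, and distances to RefSeq genes of GRCh38.p14 and motif matches were computed with Python 3.11.15, numpy 2.4.6 and pandas 2.3.3, checked on simulated data. Nothing was filtered, and no test was made. A planned comparison of protein sequences was not run. The genes and lists were chosen with earlier results of these data known. Genes named are the 10 genes, genes within 10 kb of their peak, the 5 most alike boundary peaks and list genes. Genes at the nearest peak of a gene out of reach (TCF12, GATAD2A, TSC22D1, JUNB, DOHH, RCL1, USP30, DSE and BRD2) were added after the values were seen.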

Additional observations from a re-analysis of the deposited data

How the results depend on the processing

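No paired analysis was possible because the peaks of a treatment come as a single list in which replicates cannot be separated, and for the same reason no replicate was left out. RFX5 stayed the only gene in reach in the Nutlin-3a list with a reach of 2, 50 or 100 kb, with summits in place of whole peaks, with −log10 q of at least 5 and above the median fold enrichment. With 200 kb, chosen after seeing the data, RFXANK made the count 2, but 7.08% of all protein-coding genes were nearer to a Nutlin-3a peak than RFXANK. At 100 kb, 4 MHC genes (HLA-DMA, HLA-DMB, HLA-DOA and HLA-DPA1) were in reach of the same peak in BRD2. The shares of all protein-coding genes within 100 or 200 kb are not given here, so these counts stand without a background. The share of Nutlin-3a peaks above the RFX5 peak was 7.21% by fold enrichment, 31.8% by −log10 p, 31.8% by −log10 q and 31.7% by fold enrichment among boundary peaks. Genes with a match numbered 5 with the arm, 2 with GTTGCCA or GTTGCTA (RFX1 and RFX4) and 1 with the full X-box (RFX4). By window, 7, 3 and 1 of the 15 windows had a match. The shares over all 22078 windows were 23.1%, 6.66% and 0.516%, so the longer motifs were rarer over all windows too. With GTTACC added, after seeing the data, the genes with a match were again 5. They held it in 9 of the 15 windows, beside 27.5% of all windows. The other Nutlin-3a counts kept their value under the alternatives run. The counts of 0 in the DMSO list did too, but stricter peaks or overlaps cannot lower a 0, and the nearest DMSO peak to any of the 10 genes was 4.54 Mb away, beyond every reach tried, so this says nothing of stability. At a gene without a listed peak, signal under the calling threshold is unknown, as is read depth.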
